A study of Mus musculus with 8 samples.

Results

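The genes examined were the V1R pheromone receptor genes numbered in series from Vmn1r91 to Vmn1r185, all on mouse chromosome 7. Within this range they were taken by symbol alone, pseudogene symbols left out, which found 60 of the 27532 genes in the deposited table. The range itself was chosen with earlier results of these data known. The remaining 35 numbers of that range were not analysed here. Another 147 numbered V1R genes lay outside the range and served for comparison. Levels come from RNA sequencing of the vomeronasal organ of 8 adult mice, 4 heterozygous (Tex15Het) and 4 knockout (Tex15KO) for Tex15, and are TPM, a transcript abundance per length of gene scaled to a common sum in each library. Tex15Het replicate 1 was a male of 11.4 weeks, replicate 2 a female of 14.6 weeks and replicates 3 and 4 females of 11.9 weeks. Tex15KO replicate 1 was a female and replicates 2 and 3 males of 11.9 weeks, and replicate 4 was a male of 12.1 weeks. Every animal carried at least 1 mutant Tex15 allele, since heterozygotes were the controls, and wild-type animals were not analysed here. The labels name separate animals and give neither strain nor the kind of allele.

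V1R receptors are G protein-coupled receptors of the sensory neurons that line the apical layer of the vomeronasal epithelium. Each of these neurons is thought to use mainly a single receptor gene and signals through the G protein subunit encoded by Gnai2. The receptors detect small molecules in urine and other secretions, and the family has grown by tandem duplication into clusters of near-identical genes. TEX15 is best known from male germ cells, where it takes part in meiosis and in the silencing of transposons.

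Tex15 itself was measured at 2.72, 2.29, 2.81 and 2.27 TPM in Tex15Het replicates 1 to 4 and at 0.870, 1.23, 1.12 and 1.14 TPM in the Tex15KO replicates. The groups did not overlap, but the log2 fold change of −1.03 on the deposited scale (SE 0.38) did not pass the limma test over all genes (adjusted p = 0.794). Each limma p tests the fold change on the deposited scale against 0. Fold changes given without a scale are relative to the median gene, which was 0.19 above 0, so that of Tex15 was −1.22. Recovered depth was 17987071 to 26569176 reads per library. Tex15Het replicate 1 stood apart. Its level of Omp, a marker of mature olfactory and vomeronasal sensory neurons, was 66.6 TPM, against 627 to 943 TPM in the other Tex15Het libraries and 571 to 749 TPM in Tex15KO. Its 5 apical neuron markers (Gnai2, Meis2, Pde4a, Nrp2 and Gng13) were all detected, and their sum over the libraries ran from 219.9 to 418.1 TPM in Tex15Het and from 282.8 to 397.1 TPM in Tex15KO. The summed level of 5 genes of main olfactory neurons (Gnal, Adcy3, Cnga2, Ano2 and Stoml3) was 69.1, 214.0, 72.0 and 121.7 TPM in Tex15Het and 60.8, 46.3, 58.2 and 57.2 TPM in Tex15KO, lower in every Tex15KO library, but 0 of the 5 were called by limma. Of the 5, 1 (Stoml3) was lower at an unadjusted p under 0.05, and the groups overlapped in the other 4. Tex15Het replicate 2 was the highest of all libraries in that sum, in the sum of 3 sustentacular cell genes (3837 TPM, against 652.3 to 1214 TPM in the others) and in that of 3 haemoglobin genes (17169 TPM, against 3124 to 10975 TPM). Tex15Het replicates 1 and 2 also carry animal numbers of an earlier series that held no knockout, and the other 6 animals numbers of a later series. The main results are therefore also given without replicate 1 or within the later series. The part of these differences in the results was not tested.

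All 60 genes are annotated as protein coding in GENCODE M21 (build GRCm38), with coding sequences of 891 to 969 bases, and they span chr7:20099680-26618464. RefSeq lists an older symbol of the V1rd type for 11 of them and the symbol V1re12 for Vmn1r185. Many are near copies. Of the 60, 49 had another of these genes at 97% coding identity or more, and 14 fell into 6 sets whose coding sequences were identical. A near-identical set and a more distinct pair are shown, because likeness decides how far a level belongs to 1 gene. The first set is the copies around Vmn1r131. Bases 242 to 361 of its coding sequence are also those of Vmn1r138, Vmn1r166 and Vmn1r111, whereas Vmn1r118 differs there at the 2 positions in capitals. All run 5′ to 3′ on the coding strand.
Vmn1r131: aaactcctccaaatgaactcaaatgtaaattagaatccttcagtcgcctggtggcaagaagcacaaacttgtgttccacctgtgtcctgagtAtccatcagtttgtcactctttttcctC
Vmn1r118: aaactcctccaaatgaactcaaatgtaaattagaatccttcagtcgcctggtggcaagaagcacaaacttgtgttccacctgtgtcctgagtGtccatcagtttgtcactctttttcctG
Vmn1r184 and Vmn1r185 lie apart from the others and were 92.8% identical, so reads can tell them apart. Aligned coding stretches from base 383 of Vmn1r184 and base 386 of Vmn1r185 differ at 14 positions, shown in capitals.
Vmn1r184: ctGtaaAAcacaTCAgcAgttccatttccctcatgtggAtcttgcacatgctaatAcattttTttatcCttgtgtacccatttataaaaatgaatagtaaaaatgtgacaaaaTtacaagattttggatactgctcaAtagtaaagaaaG
Vmn1r185: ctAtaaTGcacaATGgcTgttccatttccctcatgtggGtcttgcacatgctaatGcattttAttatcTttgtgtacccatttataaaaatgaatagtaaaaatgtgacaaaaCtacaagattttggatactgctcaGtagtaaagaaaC

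Most of the 60 genes were scarce and a few were abundant. The mean over the 8 libraries ran from 0.0287 TPM to 23.3 TPM, with a median of 0.422 TPM. Below 0.5 TPM lay 34 genes, between 0.5 and 2 TPM lay 21, and at 2 TPM or more lay 5, Vmn1r169, Vmn1r171, Vmn1r177, Vmn1r184 and Vmn1r185. The 5 abundant genes together held 50.8% ± 10.8 of the 60 genes' TPM in Tex15Het and 75.8% ± 1.46 in Tex15KO (SD, n = 4). The number of genes at 0 was 1, 5, 2 and 3 in Tex15Het replicates 1 to 4 and 20, 10, 9 and 7 in the Tex15KO replicates. Every Tex15KO library thus listed more of them at 0 than any Tex15Het library, and Tex15KO replicate 1, with 20, was also the library with the fewest reads. A floor of 3 reads on a gene of 1 kb corresponded to 0.183 to 0.327 TPM, and to less on a longer gene. The lengths used for the 60 genes ran from 918 to 12628 bases. A listed 0 thus limits the level only to about that value, or to a lower one for the longer genes. These limits cover counting error only.

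**Figure D1:**
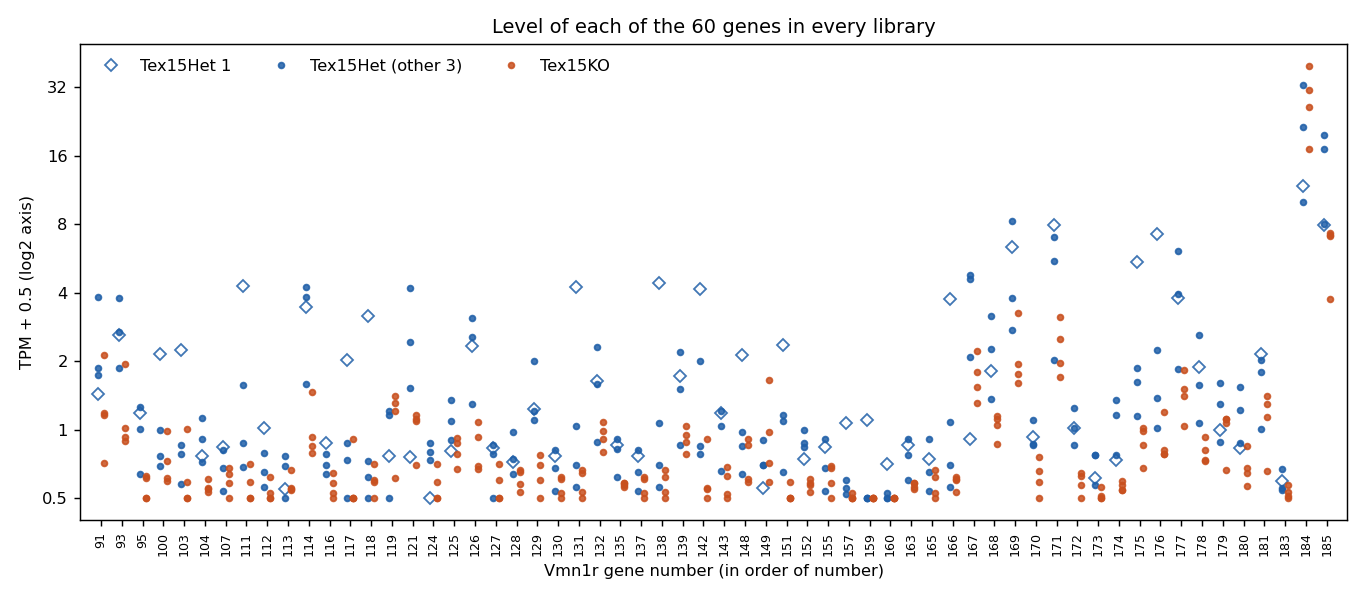
Level of each gene (TPM + 0.5, log2 axis) against its number, with 1 point per library, open diamonds for Tex15Het replicate 1, blue points for the other Tex15Het libraries and orange points for Tex15KO. The orange points lie below most blue ones for nearly all genes except Vmn1r184, and the open diamond stands above every other point for a group of genes such as Vmn1r111, Vmn1r131 and Vmn1r138.

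The mean was lower in Tex15KO than in Tex15Het for 57 of the 60 genes and higher for 3, Vmn1r119, Vmn1r149 and Vmn1r184. Without Tex15Het replicate 1 it was lower for 56. The highest library was Tex15Het replicate 3 for 30 genes, replicate 1 for 21 and replicate 4 for 6, and a Tex15KO library only for the same 3 genes. In 18 of the 60 every Tex15KO value was below every Tex15Het value. The same was true of 1.23% of all genes in the table and of 40 of the 147 other numbered V1R genes. The reverse was true of 0 of the 60, of 214 of the 27532 genes in the table and of 6 of the 147. Separation with Tex15KO lower was thus about as frequent among the other V1R genes. Without Tex15Het replicate 1, which makes separation easier for every gene, it was seen in 21 of the 60, in 43 of the 147 and in 2.35% of all genes. In whole tissue, fewer neurons that use a receptor and less of its RNA per neuron cannot be told apart.

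As a share of V1R output the 60 genes were lower in Tex15KO, and without Vmn1r184 the gap was wider. Their summed TPM was 102, 40.3, 126 and 87.0 in Tex15Het and 30.8, 53.2, 48.9 and 69.7 in Tex15KO. The sums overlapped, with Tex15Het replicate 2 below 3 of the Tex15KO libraries. The other V1R genes summed to 524.1 ± 235.8 TPM in Tex15Het and 578.3 ± 159.3 TPM in Tex15KO (SD, n = 4), also overlapping. Taken as a percent of all numbered V1R TPM, which cancels the scaling of a library, the 60 genes held 19.9, 13.0, 13.4 and 12.6% in Tex15Het and 8.04, 8.34, 6.84 and 8.94% in Tex15KO. The 4 Tex15KO values were all below the 4 Tex15Het values. The 59 genes other than Vmn1r184 held 11.8% ± 3.95 of V1R TPM in Tex15Het and 3.59% ± 0.274 in Tex15KO (SD, n = 4), again without overlap. Tex15Het replicate 1 was the highest at 17.7%, and the other 3 were at 9.56 to 9.94%. Within the later series the share of all 60 genes differed by −4.95 percentage points, against −6.68 over all libraries. Because the genes were chosen with earlier results known, these sums are given without a test.

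**Figure D2:**
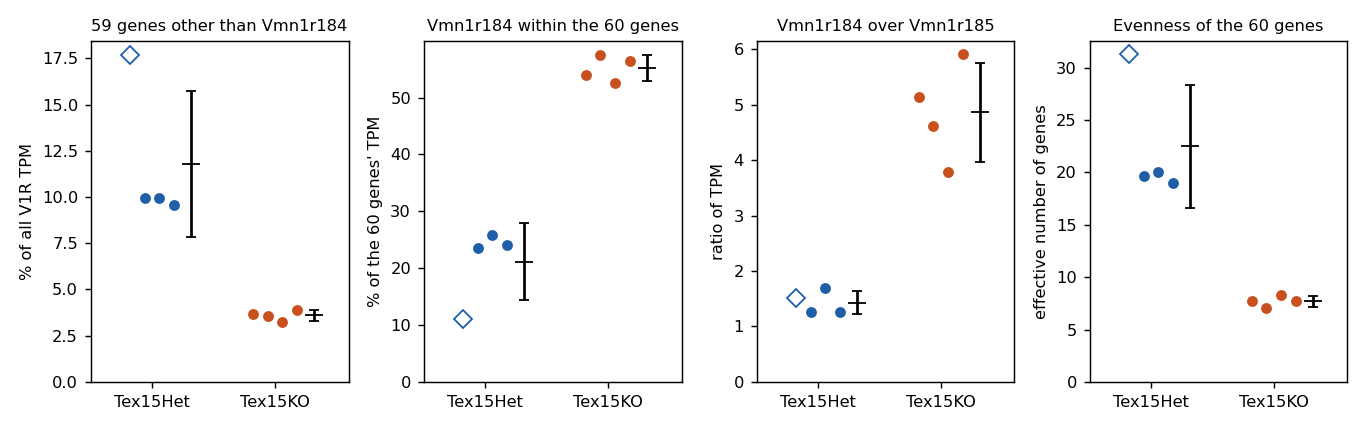
Values per library for the share of V1R TPM in the 59 genes other than Vmn1r184, the share of the 60 genes' TPM in Vmn1r184, the ratio of Vmn1r184 to Vmn1r185 and the effective number of genes. Points are libraries, the open diamond is Tex15Het replicate 1, and the bars give mean ± SD (n = 4). The groups do not overlap in any of the 4 panels, and the diamond is the most distant Tex15Het point from the Tex15KO points in all panels except the ratio.

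Vmn1r184 (chr7:26260334-26270619) was the most abundant of the 60 genes. It measured 11.3, 9.51, 32.3 and 20.95 TPM in Tex15Het replicates 1 to 4 and 16.6, 30.6, 25.7 and 39.4 TPM in the Tex15KO replicates. The ranges overlapped widely, and the fitted log2 fold change was 0.64 on the deposited scale (SE 0.44, adjusted p = 0.9995 by limma) and 0.45 relative to the median gene. The sign of the latter turned in fits without Tex15Het replicate 1 (−0.09) and with the animal series as a term (−0.11). Vmn1r184 alone made up 11.05, 23.6, 25.8 and 24.1% of the 60 genes' TPM in Tex15Het and 54.0, 57.6, 52.6 and 56.5% in Tex15KO. It thus held more of their TPM than the other 59 genes together in each Tex15KO library, and less in each Tex15Het library.

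Vmn1r185 (chr7:26607636-26618464), its nearest relative among the 60, measured 7.45, 7.54, 19.2 and 16.6 TPM in Tex15Het and 3.24, 6.62, 6.81 and 6.66 TPM in Tex15KO. The Tex15KO libraries were all lower, with a log2 fold change of −1.02 on the deposited scale (SE 0.44), which did not pass the threshold (limma adjusted p = 0.9995, unadjusted p = 0.0330), and of −1.21 relative to the median gene. Within the later series without the sex term, and with the animal series as a term, it was called lower. The fold change was −1.83 without Tex15Het replicate 1 and −0.60 without Tex15KO replicate 1, called in neither. The ratio of Vmn1r184 to Vmn1r185 within a library was 1.51, 1.26, 1.69 and 1.26 in Tex15Het and 5.14, 4.63, 3.78 and 5.91 in Tex15KO. The groups did not overlap, and means were 1.43 ± 0.208 and 4.86 ± 0.894 (SD, n = 4). This ratio needs no scaling between libraries. Leaving out each library in turn kept the difference of 3.43 between 3.08 and 3.79.

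**Figure D3:**
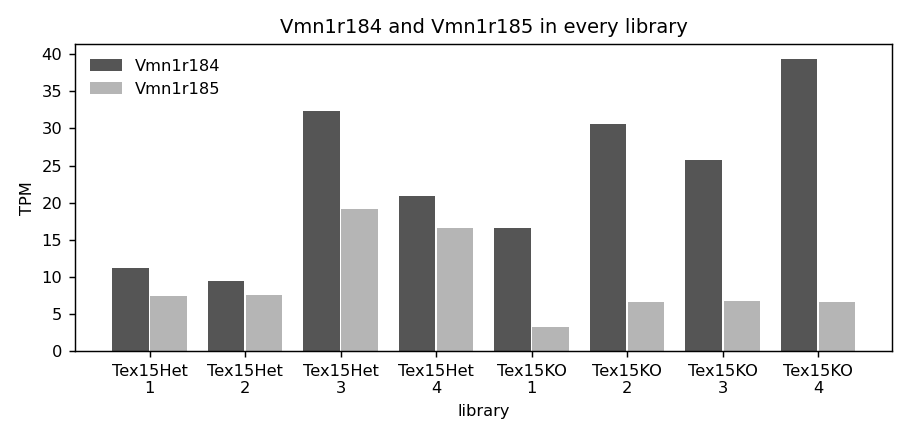
TPM of Vmn1r184 (dark bars) and Vmn1r185 (light bars) in each of the 8 libraries, on an axis that starts at 0. The light bars are 3.24 to 6.81 TPM in the Tex15KO libraries and 7.45 to 19.2 TPM in the Tex15Het libraries, while the dark bars overlap between the groups.

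The output of the 60 genes was spread over fewer of them in Tex15KO. The effective number of genes, the exponential of the Shannon entropy of their TPM shares, was 31.3, 19.6, 20.02 and 18.99 in Tex15Het and 7.73, 7.03, 8.27 and 7.76 in Tex15KO. The difference in means was −14.8 over all libraries, −11.9 without Tex15Het replicate 1 and −11.8 within the later series. With Vmn1r184 left out it was 26.5 ± 4.14 and 20.5 ± 1.72 (SD, n = 4), still without overlap but closer, with the lowest Tex15Het library at 23.4 and the highest Tex15KO library at 23.0. The number at 0.5 TPM or more was 34, 17, 34 and 30 in Tex15Het and 7, 14, 13 and 18 in Tex15KO, which overlapped through Tex15Het replicate 2.

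In a limma fit over the whole table with sex as a term, 26 of the 60 genes had a mean of at least 0.5 TPM and were tested. Of these 1 was called lower in Tex15KO, Vmn1r175, and 0 higher, where 0.586% of the 20305 tested genes were called, 0.374% lower and 0.212% higher. After median-ratio scaling 3 were called lower and 0 higher, against 0.629 and 0.139% of all genes tested, and with limma-voom on recovered reads 7 lower and 0 higher, against 0.517 and 0.0985%. The genes called differed between fits, since Vmn1r175 was among the 7 but the 3 were Vmn1r93, Vmn1r114 and Vmn1r169. With each fold change tested against the median gene in place of 0, 4 were called lower (Vmn1r111, Vmn1r142, Vmn1r175 and Vmn1r176) and 0 higher, against 0.680% of all genes tested. At an unadjusted p under 0.05, 18 were lower and 0 higher, against 1.46 and 1.64% of all tested genes. The fitted fold change lay below the median gene in 25 of 26, against 50.0% of all tested genes, and lower by more than 1 log2 unit in 21, against 2.23%. The median over these 26 was −1.22 on the deposited scale and −1.41 relative to the median gene, with a range of −2.14 to 0.45 on the latter. Over all 60 in a fit with no filter it was −0.90 relative to the median gene. The groups did not overlap, with Tex15KO lower, in 8 of the 26, against 0.926% of all tested genes and 31 of the 117 other V1R genes tested. The filter favours such genes, since 13 of the 26 had a Tex15KO mean under 0.5 TPM and passed through their Tex15Het level, whereas 1 passed the opposite way. With no filter, all 60 were tested, 0 were called, against 0.262% of all genes in that fit and 3 of the 147 other V1R genes (all 3 lower), and 40 were lower at an unadjusted p under 0.05, against 1.56%. For the other V1R genes, 8 of 117 tested were called lower and 1 higher, with a median of −0.81 over those tested and −0.71 over all 147 with no filter. The difference between the 2 sets of V1R genes was not tested.

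**Figure D4:**
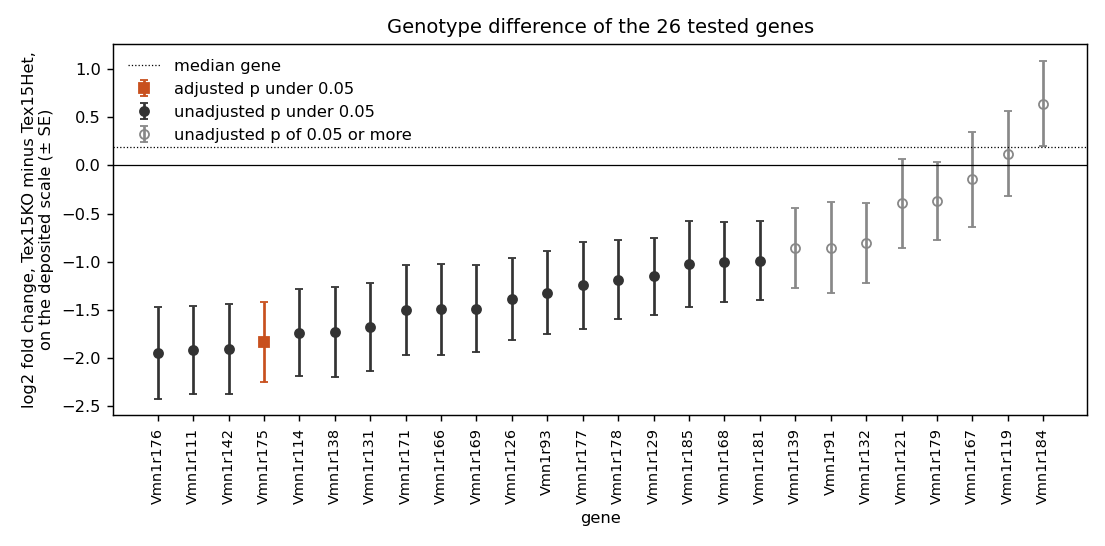
Fitted log2 fold change on the deposited scale, Tex15KO minus Tex15Het, for each of the 26 tested genes, with its SE, the solid line at 0 and the dotted line at the median gene (0.19). The square marks Vmn1r175 at −1.83, the 1 gene past the threshold, filled circles mark genes at an unadjusted p under 0.05 and open circles the rest, with Vmn1r184 alone above the dotted line at 0.64.

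Vmn1r175 (chr7:23807182-23810643) measured 4.95, 0.654, 1.36 and 1.12 TPM in Tex15Het and 0.179, 0.522, 0.360 and 0.489 TPM in Tex15KO. The groups did not overlap, and Tex15Het replicate 1 was far above its group. The log2 fold change was −1.83 on the deposited scale (SE 0.42, limma adjusted p = 0.0489, range 0.00300 to 1 over the alternatives). Relative to the median gene it was −2.03, from −3.52 to −0.79 over the alternatives. It passed the threshold in 9 of 24 alternatives, and not with another scaling, without the sex term, within the later series or with the series as a term. In this fit Tex15Het replicate 1, the single male of its group, and Tex15KO replicate 1, the single female of its group, weigh 0.5 each and every other library 0.167. Without Tex15Het replicate 1 the fold change was −1.09 and the call was lost, and 0 of the 20 genes that could then be tested were called, against 0.406% of all genes in that fit. Left-out libraries also moved the count, each time with 24 to 26 of the 60 tested. It was 7 without Tex15Het replicate 2 (against 0.989% of all genes in that fit), Tex15Het replicate 4 (1.25%) or Tex15KO replicate 1 (0.545%). It was 5 without Tex15KO replicate 4 (0.946%), 1 without Tex15Het replicate 3 (0.801%), and 0 without Tex15KO replicate 2 (0.505%) or replicate 3 (0.563%). Vmn1r170, the nearest relative of Vmn1r175 at 98.1% coding identity, was at 0.356 to 0.607 TPM in Tex15Het and 0 to 0.262 TPM in Tex15KO, also without overlap and below the filter.

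The genes from Vmn1r167 to Vmn1r183 form the end of the main cluster (chr7:23503646-24063554, 16 genes) and are mostly distinct in sequence, with 70.1 to 100% of their 100-base windows found in no other annotated gene. Their summed level was 35.1, 11.7, 38.0 and 25.8 TPM in Tex15Het and 6.20, 8.43, 8.59 and 12.3 TPM in Tex15KO. Only Tex15Het replicate 2 lay within the Tex15KO range. Of the 10 tested, 1 was called, against 0.586% of all tested genes, and all 10 had fold changes below the median gene, against 50.0%, though 4 of the 10 had a Tex15KO mean under 0.5 TPM and passed the filter through their Tex15Het level. In 8 of the 16 the groups did not overlap, with Tex15KO lower, against 1.23% of all genes and 40 of the 147 other numbered V1R genes. The abundant receptor Vmn1r171 measured 7.41, 1.52, 6.57 and 5.01 TPM in Tex15Het and 1.21, 2.00, 1.46 and 2.64 TPM in Tex15KO, and the log2 fold change was −1.50 on the deposited scale (SE 0.46) at a limma adjusted p of 0.354. Relative to the median gene it was −1.69, and −0.99 without Tex15Het replicate 1 and the sex term. It was called lower with the animal series as a term (−1.98), after scaling to Gnai2 (−1.70) and without Tex15Het replicate 2 (−1.86), and not in the other 21 alternatives. For Vmn1r169 the values were 5.83, 2.25, 7.75 and 3.29 TPM against 1.10, 1.44, 1.25 and 2.74 TPM, and the log2 fold change was −1.49 on the deposited scale (SE 0.45) at a limma adjusted p of 0.328, past the threshold in 2 of 24 alternatives. In both, Tex15Het replicate 2 fell below the highest Tex15KO library, replicate 4, and the other 3 Tex15Het libraries were above all Tex15KO libraries.

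Vmn1r177 measured 3.28, 1.35, 5.62 and 3.45 TPM in Tex15Het and 1.33, 0.539, 1.01 and 0.908 TPM in Tex15KO. The groups were separate by a narrow margin, and the log2 fold change was −1.25 on the deposited scale (SE 0.45, limma adjusted p = 0.726). Relative to the median gene it was −1.44, and it was −0.88 without Tex15Het replicate 1, and −1.60 within the later series, where it was called lower. Vmn1r168, at 98.6% identity to it, had 0.858 to 2.65 TPM in Tex15Het and 0.366 to 0.650 TPM in Tex15KO, without overlap. Vmn1r167 differed from this pattern in Tex15Het replicate 1, which was the lowest of all libraries. It measured 0.411, 1.59, 4.27 and 4.12 TPM in Tex15Het and 1.04, 0.811, 1.30 and 1.72 TPM in Tex15KO. The fold change of Vmn1r167 was −0.34 (SE 0.49) and turned to 0.47 without Tex15KO replicate 1. It was −1.15 without Tex15Het replicate 1 and −1.29 within the later series without the sex term. Vmn1r167 was called in none of these fits. Vmn1r179, whose nearest relative among the 60 was at 84.2% identity, had 0.387 to 1.11 TPM in Tex15Het and 0.167 to 0.619 TPM in Tex15KO, overlapping, with a fold change of −0.56 (SE 0.40).

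Vmn1r176 showed the lowest fitted fold change of the 26 tested genes, −1.95 on the deposited scale (SE 0.47, limma adjusted p = 0.0829) and −2.14 relative to the median gene. Its values were 6.73, 0.518, 1.73 and 0.880 TPM in Tex15Het and 0.279, 0.282, 0.318 and 0.698 TPM in Tex15KO. On the latter scale it was −0.84 without Tex15Het replicate 1 and −3.44, and called, without Tex15KO replicate 1. It passed the threshold in 7 of 24 alternatives.

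The genes from Vmn1r91 to Vmn1r166 (chr7:20099680-23251682, 42 genes) hold most of the near copies. Their summed level was 48.0, 11.6, 36.1 and 23.6 TPM in Tex15Het and 4.73, 7.54, 7.76 and 11.4 TPM in Tex15KO, without overlap, though Tex15Het replicate 2 was only just above Tex15KO replicate 4. Of the 14 tested, 0 were called, against 0.586% of all tested genes, and 9 were lower at an unadjusted p under 0.05, against 1.46%. All 14 had fold changes below the median gene, against 50.0%, but 9 of the 14 had a Tex15KO mean under 0.5 TPM and passed the filter only through their Tex15Het level. Vmn1r114 had 2.97, 1.08, 3.72 and 3.32 TPM in Tex15Het and 0.428, 0.346, 0.292 and 0.971 TPM in Tex15KO. Its groups did not overlap, and the log2 fold change was −1.73 on the deposited scale (SE 0.45, limma adjusted p = 0.125, range 0.00789 to 0.800 over the alternatives). It passed the threshold in 8 of 24 alternatives. Vmn1r93, Vmn1r121 and Vmn1r126 belong to the same set of copies, at 97.1 to 99.8% identity to their nearest, and the set of 4 summed to 8.56 ± 3.80 TPM in Tex15Het and 2.06 ± 1.08 TPM in Tex15KO (SD, n = 4), with every Tex15KO library (at most 3.59) below every Tex15Het library (at least 4.28). Vmn1r121 within the set was an exception in Tex15Het replicate 1, with 0.259 TPM there against 1.03 to 3.69 TPM in the other Tex15Het libraries and 0.199 to 0.656 TPM in Tex15KO.

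Genes with the same coding sequence had similar numbers of reads in most libraries. Recovered reads, counted from the TPM steps, were 173, 8, 14 and 2 in Tex15Het and 0, 5, 1 and 5 in Tex15KO for Vmn1r131. For Vmn1r138 they were 182, 8, 15 and 2 in Tex15Het and 0, 4, 1 and 5 in Tex15KO. For Vmn1r166 they were 151, 8, 15 and 2 in Tex15Het and 3, 4, 1 and 3 in Tex15KO. A second pair, Vmn1r132 and Vmn1r139, had 19 and 19 reads in Tex15Het replicate 2 and 43 and 43 in replicate 4, and the same numbers as each other in all 4 Tex15KO libraries. Vmn1r100 and Vmn1r148, also identical in coding sequence, differed more, with 9 and 17 reads in Tex15KO replicate 2 and 17 and 13 in replicate 4. How reads that match several genes were assigned is not given in the sources used here, so a level of such a copy is uncertain and a sum over copies may hold a read more than once. With identical copies counted once, the share of V1R TPM in the 60 genes was 14.0% ± 2.74 in Tex15Het and 7.87% ± 0.885 in Tex15KO (SD, n = 4), still without overlap.

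**Figure D5:**
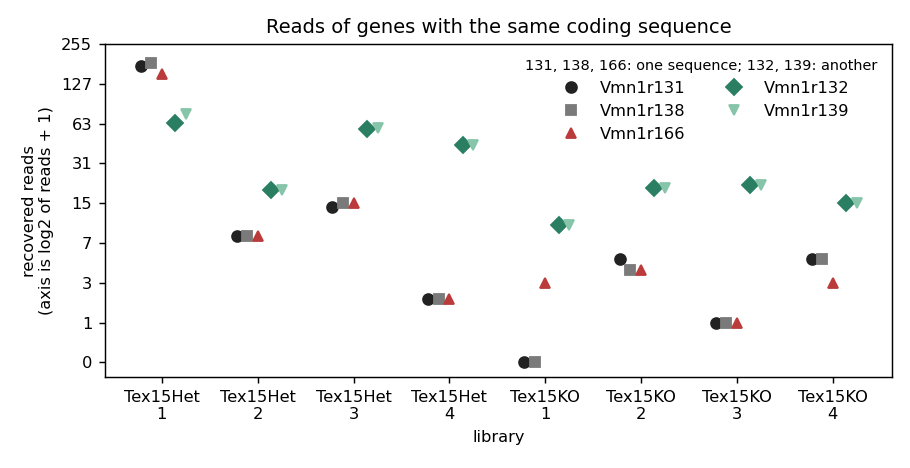
Recovered reads per library (axis on log2 of reads + 1) for Vmn1r131, Vmn1r138 and Vmn1r166, which have identical coding sequences, and for Vmn1r132 and Vmn1r139, which have another. Copies of a sequence lie close together in most libraries, with Vmn1r166 apart in Tex15KO replicate 1, and the first set reaches 151 to 182 reads in Tex15Het replicate 1 and at most 15 elsewhere.

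Tex15Het replicate 1 differed from the rest in which of these genes it used. In 16 of the 60, its level was over 2 times that of every other library, and 15 of the 16 had a near copy at 97% identity or more, as did 49 of all 60. The set of Vmn1r111, Vmn1r118, Vmn1r131, Vmn1r138 and Vmn1r166 summed to 17.3 TPM there and to 0.372 to 2.87 TPM in the other Tex15Het libraries, against 0.109 to 0.837 TPM in Tex15KO. The set of Vmn1r103, Vmn1r127, Vmn1r142, Vmn1r151 and Vmn1r159 summed to 8.18 TPM there, to 0.508 to 2.81 TPM in the other Tex15Het libraries and to 0 to 0.769 TPM in Tex15KO. Vmn1r111 had 3.78, 0.378, 1.06 and 0.188 TPM in Tex15Het and 0, 0.0906, 0 and 0.204 TPM in Tex15KO, which fitted as a log2 fold change of −1.91 on the deposited scale (SE 0.46) at a limma adjusted p of 0.0730. Vmn1r142 had 3.66, 0.281, 1.505 and 0.350 TPM in Tex15Het and 0, 0.0480, 0.406 and 0.0540 TPM in Tex15KO, which fitted as −1.91 on the same scale (SE 0.46) at a limma adjusted p of 0.0829. Relative to the median gene Vmn1r111 was at −2.11 and Vmn1r142 at −2.10, and without Tex15KO replicate 1 they were at −3.31 and −3.14 and both called. Each was past the threshold in 7 of the 20 alternatives that tested it. Without Tex15Het replicate 1 neither reached the mean of 0.5 TPM needed for the test. Across the 60 genes the profile of log2(TPM + 0.5) of this library correlated with those of the other libraries at r = 0.511 to 0.647, where the other pairs of Tex15Het libraries were at 0.940 to 0.954, a description over genes that share reads.

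Vmn1r119 and its nearest relative Vmn1r149 (97.1% identity) were the pair of copies with the higher mean in Tex15KO. Vmn1r119 measured 0.264, 0, 0.707 and 0.657 TPM in Tex15Het and 0.112, 0.813, 0.713 and 0.914 TPM in Tex15KO. Vmn1r149 measured 0.0521, 0.198, 0.403 and 0.197 TPM in Tex15Het and 0.0881, 0.475, 0.214 and 1.15 TPM in Tex15KO. Both overlapped between the groups, and the fitted fold change of Vmn1r119, −0.07 (SE 0.44), took either sign over the alternatives.

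The 34 genes below the filter together gave 19.98, 4.83, 13.8 and 10.7 TPM in Tex15Het and 1.93, 3.12, 3.42 and 5.19 TPM in Tex15KO, overlapping only through Tex15Het replicate 2. In 10 of the 34 the groups did not overlap, all with Tex15KO lower, against 2.09% of all genes below the filter and 9 of the 30 other numbered V1R genes below it, a like share. Vmn1r172, Vmn1r173 and Vmn1r174 are such a set, near copies of each other at 97.6 to 98.3% identity to the nearest, and summed to 0.708 to 1.68 TPM in Tex15Het and 0.0452 to 0.296 TPM in Tex15KO. Vmn1r159 and Vmn1r160 were listed at 0 in all 4 Tex15KO libraries. Vmn1r159 was at 0.599 TPM in Tex15Het replicate 1 and listed at 0 in the other 3 Tex15Het libraries, so no fold is given.

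The genes also differed in how much of their annotated sequence was their own. The windows come from GENCODE M21 transcripts, which are under 1000 bases long for 42 of the 60 genes. For 38 of the 60, reads were recovered over a longer length. The windows may thus leave out part of the sequence that was counted. The 17 genes with at least 80% of windows unique gave 56.6 ± 24.01 TPM in Tex15Het and 42.6 ± 13.7 TPM in Tex15KO (SD, n = 4), with overlapping ranges of 28.4 to 86.5 and 24.96 to 58.1 TPM. As a share of the 60 genes' TPM they held 64.7% ± 9.67 in Tex15Het and 83.9% ± 2.26 in Tex15KO, which did not overlap, with Tex15KO higher. Vmn1r184 is 1 of the 17. The 18 genes with no unique window gave 13.6 ± 9.58 TPM in Tex15Het and 2.93 ± 0.944 TPM in Tex15KO (SD, n = 4). The Tex15KO libraries were all lower, though by a narrow margin, since the lowest Tex15Het library, replicate 2, was at 4.48 TPM and the highest Tex15KO library, replicate 4, at 4.33 TPM. Whether the sets differed in the size of their change was not tested.

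RefSeq start-site windows (build of the RefSeq table, 57 of 60 genes matched) were searched on both strands for 4 short motifs. A RefSeq start of a V1R gene can be that of its coding exon, so a window need not hold a promoter. TATAAA was in 33 of 57 windows (57.9%), against 35.2% of other V1R windows and 13.6% of all windows in the table. CANNTG was in 55 (96.5%), against 75.4 and 72.3%. TAATTA was in 0, against 10.6% of other V1R windows and 5.29% of all windows, and a longer motif of the Olf-1/EBF type in 0, against 0 of 142 other V1R windows and 0.904% of all windows. Near-identical genes hold near-identical windows, so these counts are not of independent sequences.

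Sex and genotype are unevenly crossed, with 1 male Tex15Het and 1 female Tex15KO. For sex, 0 of the 26 tested genes were called by limma, where 0.0492% of all genes were, and 8 were at an unadjusted p under 0.05, against 2.27% of all genes. For Vmn1r175 the level in males minus females was 1.17 log2 units as fitted (unadjusted p = 0.0111), and for Vmn1r138 it was 1.41 (unadjusted p = 0.00655). Both were among the genes highest in Tex15Het replicate 1, the only male of its group, so sex and that library cannot be told apart in Tex15Het. For the difference of the genotype effect between the sexes, 0 were called, where 0.133% of all genes were, and 6 were at an unadjusted p under 0.05, against 3.05% of all genes, with 0.787 the lowest limma adjusted p.

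Genes of the apical neurons and of vomeronasal signalling served as the other side of the comparison. Of a list of 12, which also holds Ano2, 11 were measured, and 0 were called in either direction, with 1 higher at an unadjusted p under 0.05 (limma), and a median log2 fold change of 0.06. That gene was Omp, which was low in Tex15Het replicate 1. Gnai2, the G protein subunit of apical neurons, measured 175.5, 113.6, 301.9 and 263.7 TPM in Tex15Het and 199.2, 216.4, 283.1 and 292.0 TPM in Tex15KO, overlapping. Trpc2, the transduction channel, was not analysed here. After scaling every library to Gnai2, 3 of the 26 tested V1R genes were called lower (Vmn1r114, Vmn1r126 and Vmn1r171) and 0 higher, against 0.618 and 0.123% of all genes in that fit.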

How the data were processed

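Polyadenylated RNA of dissected vomeronasal organs was sequenced from strand-specific libraries as paired reads, per the labels' protocols. The authors deposited a table of TPM values, 1 column per library, with replicates not pooled. The submitters' processing notes name Trim Galore 0.6.5, cutadapt 5.1, STAR 2.7.11b and deepTools 3.5.5 and the build GRCm38. The counting program, its use of strand and its treatment of reads matching several genes are not given in the sources used here. P-values measure the spread between animals, 4 per group.

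The genes were found by symbol. Log2(TPM + 0.5) was fitted for the 20305 genes averaging 0.5 TPM or more with limma 3.58.1 in R 4.3.3 (eBayes with trend, genotype and sex as terms), with Benjamini-Hochberg adjustment over all of them and calls at adjusted p under 0.05. Fold changes carry this pseudocount, which makes them too small for low genes, and, where no scale is named, are relative to the median gene, which shifted by 0.19 as deposited and −0.01 after median-ratio scaling. P-values and calls test the fold change on the deposited scale against 0, and 0 called genes changed sign between the scales. Sums, shares and evenness were described per library without a test.

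Whole reads were recovered for 99.5% of genes, and for all 60 described here, as TPM times length divided by the worth of 1 read (tolerance 0.0001). For 38 of the 60 the GENCODE M21 length gave no whole reads, and the smallest longer length that did in all 8 libraries was used. Coding identity and windows of 100 bases come from GENCODE M21 transcripts, used in place of the protein sequences first planned. Runs along the chromosome were split at gaps of 500 kb and, for description, 250 kb.

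The genes and lists were chosen with earlier results of these data known. Genes are named where called, among the 6 highest in either group, among the 5 largest rises or falls, or as the nearest relative over 95% of such a gene, and others were named after their values were seen. Python 3.11.15 with pandas 2.3.3 and Biopython 1.88 was used. Alternatives were other pseudocounts, filters, scalings, designs (without the sex term among them), subsets of animals, limma-voom on recovered reads and leaving out each library. Added after seeing the data were the fits without Tex15Het replicate 1, with the replicate block and with limma-voom that also drop the sex term, the count of separate groups without Tex15Het replicate 1, identical copies counted once, and a test of each fold change against the median gene.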

Additional observations from a re-analysis of the deposited data

Results flagged for a closer look

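A library was set apart where its distance to the next value filled nearly all of the range of its group of 4. Of 64 groups examined, 12 held such a library, and 6 of the 12 were Tex15Het replicate 1. The cutoff would pass about 1 in 20 groups of independent and normally distributed values. Several of the measures derive from the same 60 genes, and TPM need not be normally distributed. The count is therefore not compared with chance. In that library Vmn1r175 was high at 4.95 TPM and Vmn1r138 at 3.91 TPM. The 60 genes took 19.9% of V1R TPM there, and 17.7% without Vmn1r184. Vmn1r184 took the smallest share of the 60 genes' TPM there, 11.05%, and the effective number of genes was the highest, 31.3.

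In the Tex15KO group, replicate 1 was the low library for Vmn1r185 at 3.24 TPM and for Vmn1r179 at 0.167 TPM. Replicate 3 was high for Vmn1r142 at 0.406 TPM and low for Vmn1r121 at 0.199 TPM. Replicate 4 was high for Vmn1r176 at 0.698 TPM and for Vmn1r93 at 1.44 TPM.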

How the results depend on the processing

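The count of genes called lower was the least stable result. With the share of all genes called in the same fit after each, it was 0 of 26 tested with a pseudocount of 0.1 (0.557%), 0 of 60 with no filter (0.262%) and 0 of 14 with a mean of at least 1 TPM (0.617%). It was 3 of 26 after median-ratio (0.767%) or Gnai2 scaling (0.740%), 4 of 20 within the later series (0.894%), 3 of 26 with the animal series as a term (0.749%), 7 of 26 with robust variances (0.714%), 7 of 26 with limma-voom (0.616%), 3 of 26 with limma-voom without the sex term (0.754%) 4 of 26 at an adjusted p under 0.1 (0.709%) and 4 of 26 with fold changes tested against the median gene (0.680%). It was 0 to 7 when each library was left out in turn (0.406 to 1.25%), and 0 of 20 without Tex15Het replicate 1 and the sex term (0.563%). Library numbers did not pair the samples, since same-numbered libraries correlated at −0.06, 0.03, 0.10 and −0.0001 in their deviations. With the number as a replicate block 0 of 26 genes were called with the sex term (0.630%) and 0 of 26 without it (0.640%). In each of these fits 0 genes were called higher.

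Vmn1r119 changed sign to 0.19 without the sex term (with or without the block), 0.065 in the later animal series, 0.44 with limma-voom (0.90 without the sex term), 0.02 without Tex15Het replicate 4, 0.32 without Tex15KO replicate 1 and 0.22 without Tex15Het replicate 1 and the sex term. Vmn1r184 changed to −0.11 with the animal series and, over fits leaving out each library, ranged from −0.091 to 0.98. In the same fits Vmn1r167 ranged from −1.15 to 0.47 and Vmn1r119 from −0.47 to 0.32. The causes were not tested. Restricted to the 17 genes with at least 80% unique windows, the difference between groups was −2.53 points in the share of V1R TPM. It was −4.08 in the effective number, −4.25 in genes detected and −23.5 in summed TPM without Vmn1r184. Each was smaller in size than over the 60 genes. Fewer genes enter, with Vmn1r184 among them, and the reason was not tested. A gap of 250 kb gave 4 runs in place of 2. Leaving out each library gave −7.38 to −4.95 points for the share of V1R TPM and 30.7 to 35.6 points for the share of Vmn1r184. Depth limits the scarce genes, since 3 to 16 of the 60 had 3 reads or fewer in a Tex15Het library and 24 to 32 in a Tex15KO library.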
